A study of Mus musculus with 6 samples.

Results

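Genes of the cell cycle and of DNA replication were followed in whole adrenal glands of mice that carry or lack Armc5. The set holds 40 genes, each found by its symbol among the gene names of the 59699 loci of the deposited table, and all 40 were counted. They fall into 12 G1/S regulators, 13 replication genes and 15 G2/M genes. The glands came from female mice aged 30 weeks on a 129 sv X CD1 background. Of the 6 libraries, 3 were wild type (WT) and 3 were Armc5 knockout (KO, genotype Armc5(-/-)). The labels do not say which part of Armc5 is deleted or whether each library is a separate animal, so p-values measure the spread between these libraries.

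Cells that commit to division pass from G1 into DNA synthesis when D cyclins with Cdk4 or Cdk6, and then E cyclins with Cdk2, release E2F transcription factors from the retinoblastoma protein. E2F factors drive the replication genes, whose products license origins, unwind DNA and supply nucleotides. A later wave of mitotic genes is switched on towards G2 and M, when B cyclins with Cdk1 and the Aurora and Polo kinases run spindle assembly and chromosome separation. In the adrenal cortex new cells come mainly from the capsule and the outer cortex and move inwards, so dividing cells are a minority of an adult gland. In bulk RNA fewer cells of a type and less RNA per cell cannot be told apart.

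The libraries held 70547288 to 130573434 counts. Armc5 was at 27.3, 25.3 and 27.8 CPM (counts scaled to a common library size by TMM) in WT and 3.58, 3.53 and 3.65 in KO, 7.47-fold lower in KO (edgeR quasi-likelihood test, adjusted p = 0.00041). Markers of the labelled tissue were present, with all 9 loci of the steroidogenic cortex list and all 9 of the chromaffin list counted in every library, at summed levels of 32495 to 71588 CPM and 1904 to 4330.3 CPM. KO replicate 3 carried liver transcripts, with Alb (serum albumin) at 2283 CPM. The next highest library, WT replicate 1, had 12.7 CPM of it.

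Promoters of many of these genes carry letters by which the division programme is usually recognised. The G2/M genes below moved together between libraries, and whether the letters have a part in that was not tested. RefSeq promoter windows of GRCm38.p6, from 250 bases before to 50 bases after the start site, were matched for 31 of the 40 genes, in 35 windows. The cell cycle homology region (CHR) was searched as TTTGAA or TTCGAA, the E2F core as TTCCCGC or TTGGCGC and the CCAAT box as CCAAT, each on both strands. An E2F core on the reverse strand can overlap a CCAAT box, as it does in Ccnb1. The 150 bases before the start site of 3 G2/M genes (Cdc20 at chr4:118437344-118437493, Cdk1 at chr10:69352913-69353062 and Top2a at chr11:99024190-99024339, all on the minus strand) and of 2 replication genes (Mcm5 at chr8:75109359-75109508 on the plus strand and Mcm6 at chr1:128359706-128359855 on the minus strand) read as follows, 5′ to 3′, with matched letters in capitals.
Cdc20: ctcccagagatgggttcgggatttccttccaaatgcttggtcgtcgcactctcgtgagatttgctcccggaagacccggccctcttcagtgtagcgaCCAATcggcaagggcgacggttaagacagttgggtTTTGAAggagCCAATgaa
Cdk1: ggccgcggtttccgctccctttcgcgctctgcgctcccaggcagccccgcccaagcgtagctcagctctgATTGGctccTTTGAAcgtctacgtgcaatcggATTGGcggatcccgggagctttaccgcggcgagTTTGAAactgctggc
Top2a: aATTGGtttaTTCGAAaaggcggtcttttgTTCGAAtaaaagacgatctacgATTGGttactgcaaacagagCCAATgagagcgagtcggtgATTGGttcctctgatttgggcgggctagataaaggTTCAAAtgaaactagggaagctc
Mcm5: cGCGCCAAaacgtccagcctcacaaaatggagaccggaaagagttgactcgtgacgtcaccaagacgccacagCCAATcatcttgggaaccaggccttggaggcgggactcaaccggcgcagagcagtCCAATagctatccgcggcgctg
Mcm6: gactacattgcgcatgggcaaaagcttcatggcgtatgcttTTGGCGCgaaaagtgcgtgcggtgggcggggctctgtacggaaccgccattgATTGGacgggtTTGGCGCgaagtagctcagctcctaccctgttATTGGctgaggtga

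CHR letters stood in 9 of the 11 windows of G2/M genes (81.8%), in 2 of 12 windows of replication genes (16.7%) and in 1 of 12 windows of G1/S regulators (8.33%). Of all 32851 promoter windows 19.2% held them. E2F core letters stood in 8 of the 12 windows of replication genes (66.7%), in 3 of 11 of the G2/M genes (27.3%) and in 3 of 12 of the G1/S regulators (25%), against 6.81% of all windows. CCAAT letters were in 10 of 11, 9 of 12 and 6 of 12 windows of the G2/M, replication and G1/S genes (90.9%, 75% and 50%), against 37.4% of all windows. All 9 G2/M windows with CHR letters also held CCAAT letters, and 7.52% of all windows held both. These are matches of letters, not shown sites, and several of these genes are textbook cases for the motifs.

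**Figure D1:**
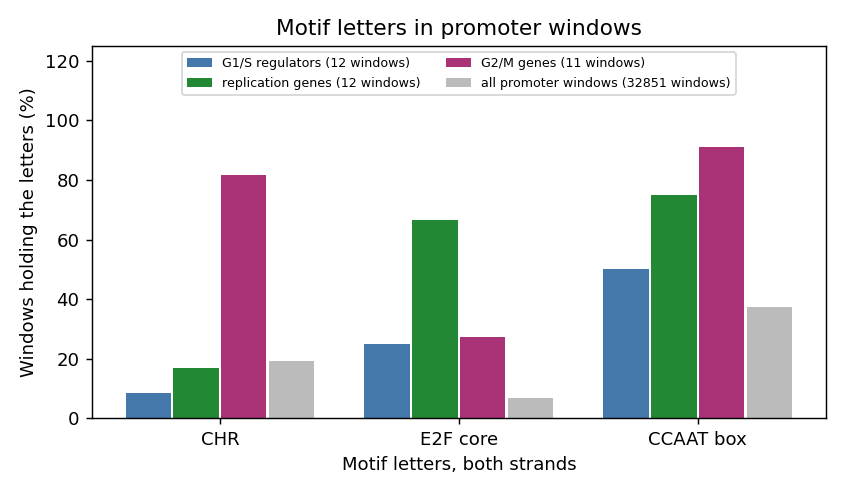
Percentage of RefSeq promoter windows that hold the letters of each motif on either strand, for each role group and for all 32851 windows. The CHR bar is highest for G2/M genes (81.8%) and the E2F core bar for replication genes (66.7%).

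No member passed the test between the genotypes: 0 of 40 were called by the edgeR quasi-likelihood test at an adjusted p under 0.05, against 1.84% of the 21358 tested loci (1.41% higher and 0.431% lower in KO). All 40 members passed the filter on low counts. Before adjustment 4 members (10%) had a p under 0.05, against 22.2% of all tested loci. The genotypes did not overlap for 2 members (5%), Cdk6 and E2f2, for which all KO libraries were above all WT libraries, against 30.5% of all loci (16.3% higher and 14.2% lower). DESeq2 called 1 member, E2f2, where it called 12.4% of all loci. Limma-trend and limma-voom called none of the 40, where they called 975 and 1503 of the 21358 loci. Each of these shares was below that of all loci, and the difference was not tested. With a share as low as 1.84%, 0 of 40 is close to that of all loci.

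The 3 role groups nevertheless stood at unlike log2 fold changes. The median over the members was -0.15 for the G1/S regulators, -0.18 for the replication genes and -0.38 for the G2/M genes, with -0.0063 for all tested loci. All 15 G2/M genes had a negative log2 fold change, from -0.83 for Birc5 to -0.012 for Foxm1, while 7 of the 12 G1/S regulators and 8 of the 13 replication genes were negative. Scaling by total counts alone, which moved the median of all loci to 0.22, left 13 of the 15 negative with a median of -0.17, and turned the G1/S and replication medians to 0.074 and 0.035. The G2/M median was -0.24 with equal Rn7sk counts (14 of 15 negative), -0.098 with limma-trend (12 of 15 negative) and -0.59 with limma-voom, and the replication median was 0.083 with limma-trend, where 3 of the 13 were negative. Relative to all loci the medians with total counts alone were -0.39 for the G2/M genes, -0.15 for the G1/S regulators and -0.19 for the replication genes. The G2/M median rested on single libraries: leaving out WT replicate 1, 2 or 3 gave -0.71, -0.21 or -0.16, and leaving out KO replicate 1, 2 or 3 gave -0.44, -0.67 or -0.12. With both WT replicate 1 and KO replicate 3 removed it was -0.45. The replication median was likewise -0.31, -0.080 or -0.058 with WT replicate 1, 2 or 3 left out and -0.22, -0.20 or -0.099 with KO replicate 1, 2 or 3 left out. None of the 40 was called in any of these fits.

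**Figure D2:**
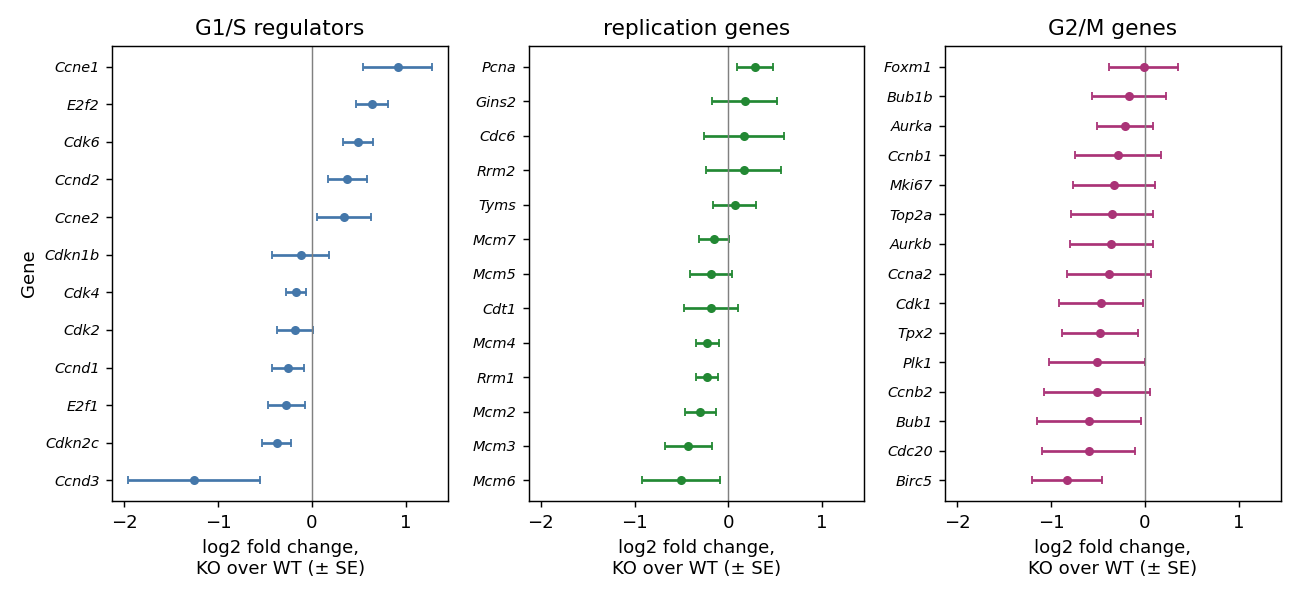
Log2 fold change of each member, KO over WT, with its standard error (edgeR, 3 libraries per genotype), in 3 panels by role. The 15 G2/M genes lie at or below 0 with wide errors, and no member passed the test.

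What set the G2/M genes apart was the spread between libraries of the same genotype. The standard deviation of log2 CPM within a genotype had a median of 0.70 over the 15 G2/M genes, against 0.32 over the replication genes, 0.27 over the G1/S regulators and 0.28 over all tested loci. It exceeded 0.5 for 14 of the 15 G2/M genes, 3 of the 13 replication genes and 2 of the 12 G1/S regulators. The smallest count of a G2/M gene in a library was 86, where the counting error is 0.16 on the log2 scale. Mki67, with 1338 to 4004 counts per library, had a standard deviation of 0.69.

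The G2/M genes were low and high in the same libraries. In all 15 of them WT replicate 1 was the lowest of the WT libraries and KO replicate 3 the lowest of the KO libraries, which held for 13.7% of all tested loci, for 10 of the 13 replication genes (76.9%) and for 4 of the 12 G1/S regulators (33.3%). In all 15, KO replicate 2 was also the highest of the KO libraries and KO replicate 1 lay between. This order was noticed in the data, and the genes are not independent of each other. Relative to each gene's mean over the 6 libraries, the median G2/M gene was at -0.72, 0.60 and 0.68 on the log2 scale in WT replicates 1, 2 and 3 and at -0.05, 0.29 and -0.81 in KO. That is a 2.65-fold span within WT and a 2.14-fold span within KO, while the genotypes overlapped throughout.

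**Figure D3:**
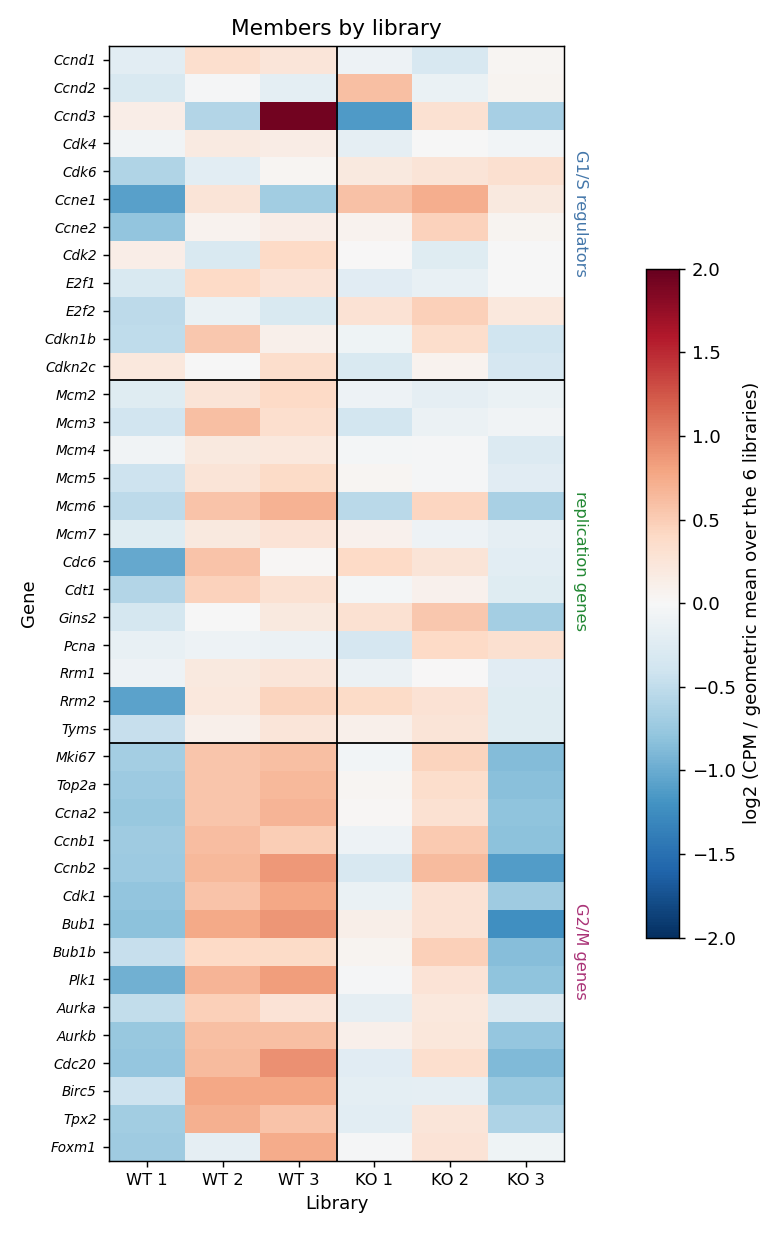
Log2 ratio of the CPM of each member to its geometric mean over the 6 libraries, with genes in rows by role and libraries in columns. The 15 G2/M rows are blue in WT replicate 1 and KO replicate 3 and mostly red in WT replicates 2 and 3. Of the 12 G1/S rows, 9 are lowest of WT in WT replicate 1, but only 5 are lowest of KO in KO replicate 3.

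The earlier steps of the cycle followed this order less closely. The median replication gene was at -0.38, 0.21 and 0.27 in WT and -0.04, 0.09 and -0.22 in KO, spans of 1.57-fold and 1.25-fold. The median G1/S regulator was at -0.31, 0.03 and 0.14 in WT and -0.04, 0.17 and 0.02 in KO, spans of 1.37-fold and 1.16-fold. Set against the G1/S regulators of the same library, the G2/M median differed by -0.41, 0.57 and 0.54 in WT replicates 1, 2 and 3. In KO the same differences were -0.01, 0.12 and -0.83. KO replicate 3 thus had G1/S regulators at their mean level and G2/M genes at their lowest.

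**Figure D4:**
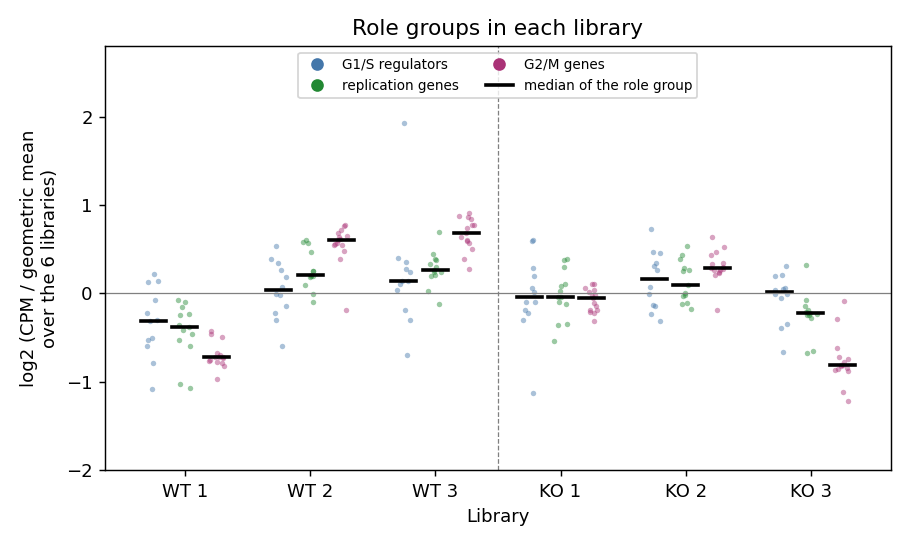
Log2 ratio of the CPM of each member (dots) to its geometric mean over the 6 libraries, with black bars for the median of each role group in each library. The G2/M medians range from -0.81 in KO replicate 3 to 0.68 in WT replicate 3, and the G1/S medians from -0.31 to 0.17.

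Other measures were set beside this order, and their part in it was not tested. Genes of red cells and of chromaffin cells were among the measures that moved with the low libraries. The merged Hba-a1 and Hba-a2 locus of alpha globin was at 524, 319 and 336 CPM in WT and 163, 76.3 and 229 in KO. The merged beta globin locus of Hbb-bs and Hbb-bt was at 318, 181 and 178 CPM in WT and 104, 58.9 and 149 in KO, and Alas2, of haem synthesis in red cells, at 13.1, 7.97 and 7.19 in WT and 5.32, 1.99 and 6.26 in KO. All 3 loci were highest in WT replicate 1 and KO replicate 3 of their genotypes and lowest of all in KO replicate 2. The chromaffin list summed to 1904, 2716 and 2026 CPM in WT and 4330.3, 3971 and 3926 in KO, lowest in WT replicate 1 and KO replicate 3. All 9 of its loci were higher in KO without overlap, and edgeR called 4 of them. The steroidogenic list summed to 71588, 42081 and 54249 CPM in WT and 38426, 32495 and 36173 in KO, highest in WT replicate 1, with 4 of 9 loci lower in KO without overlap and 0 called. The hepatocyte list was highest in KO replicate 3, at 3694 CPM summed over 7 loci, against 109 to 113 CPM in the other KO libraries and 113 to 176 CPM in WT, with Ttr and Fgb at 0 in WT replicate 3. The macrophage list of 8 loci summed to 250.5, 1099.9 and 760.0 CPM in WT replicates 1 to 3 and to 211, 247 and 223 CPM in KO, so that it was lowest where the G2/M genes were lowest in WT but not in KO. The lymphocyte list of 8 loci summed to 22.8, 65.5 and 30.9 CPM in WT and 31.9, 34.0 and 33.3 in KO. The X-zone is an inner cortical zone that regresses with first pregnancy in female mice. Its marker Akr1c18 was at 113, 0.08 and 0.17 CPM in WT and 142, 2.77 and 29.1 in KO, and the 3 X-zone loci together at 246, 118 and 66.6 CPM in WT and 224, 63.3 and 115 in KO. The summed X-zone level was therefore highest in WT replicate 1, where the G2/M genes were lowest, and in KO replicate 1, where they were not. The endothelial list of 7 loci summed to 664, 762 and 782 CPM in WT and 588, 481 and 585 in KO, and the fibroblast and capsule list of 7 to 411, 496 and 384 in WT and 301, 327 and 378 in KO. The plasma cell list of 5 loci summed to 66.1, 63.4 and 55.5 in WT and 36.5, 44.2 and 61.0 in KO. The zona glomerulosa list of 4, which shares 2 merged loci with the steroidogenic list, was at 33523, 20061 and 22679.5 CPM in WT and 17833, 14387 and 17116 in KO. Total counts were 119082215, 130573434 and 89806230 in WT and 104737109, 70547288 and 122924298 in KO, so that in KO the depth ran opposite to the order of the G2/M genes, and in WT it did not.

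Among the D cyclins, which couple growth signals to Cdk4 and Cdk6, Ccnd2 was the most abundant member of the whole set per length. It averaged 36.6 CPM per kilobase over the 6 libraries, with Ccnd1 at 25.6, Cdk4 at 20.2 and Ccnd3 at 11.4 on the same scale. Per kilobase 17 members, 9 of them G1/S regulators and 8 replication genes, stood above the most abundant G2/M gene, Mki67, at 2.27 CPM per kilobase. Ccne2, the lowest G1/S regulator, was at 0.86 CPM per kilobase. The median was 4.32 CPM per kilobase for G1/S regulators, 2.73 for replication genes and 0.83 for G2/M genes.

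Ccnd2 was at 301, 368 and 328 CPM in WT and 567, 339.8 and 386 in KO. The first KO replicate was the highest library, the other KO libraries reached into or just past the WT range, and the log2 fold change was 0.38 (SE 0.21, edgeR adjusted p = 0.335). Ccnd1 was at 102, 151 and 141 CPM in WT and 111, 95.6 and 122 in KO, with overlapping groups (log2 fold change -0.26, SE 0.17, edgeR adjusted p = 0.416). Ccnd3 was chosen after its values were seen, because WT replicate 3 stood far above the other libraries. The level of Ccnd3 was 83.8, 50.5 and 290.5 CPM in WT and 34.9, 94.4 and 48.2 in KO. A log2 fold change of -1.26 (SE 0.70; adjusted p by edgeR = 0.343) was the most negative of the 40 and came to -0.19 without WT replicate 3. The group means of Ccnd3 therefore describe that 1 library more than the genotype.

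Cdk6, a kinase that D cyclins activate, was at 41.0, 53.3 and 63.7 CPM in WT and 70.9, 74.5 and 76.9 in KO. The KO libraries were all above the WT libraries, and the means were 52.7 ± 11.4 and 74.1 ± 3.06 CPM (SD, n = 3 each), but the gene was not called (log2 fold change 0.49, SE 0.16, edgeR adjusted p = 0.156). Cdk4, the sister kinase, was at 62.1, 74.3 and 72.3 CPM in WT and 57.5, 65.0 and 63.0 in KO. Its log2 fold change was -0.17 (SE 0.10, edgeR adjusted p = 0.376) and turned to 0.053 with total counts alone. Cdkn2c, which encodes an inhibitor of both kinases (p18), was at 30.6, 26.2 and 33.7 CPM in WT and 21.4, 27.7 and 20.8 in KO. Only KO replicate 2 reached into the WT range, and the log2 fold change was -0.37 (SE 0.15, edgeR adjusted p = 0.223).

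The E cyclins carry the cell into S phase with Cdk2. Ccne1 was at 1.88, 4.76 and 2.44 CPM in WT and 5.99, 6.58 and 4.56 in KO. WT replicate 2 and KO replicate 3 overlapped, and the log2 fold change of 0.91 (SE 0.37) was the most positive of the 40 without passing the test (edgeR adjusted p = 0.217, and 0.0528 to 0.417 when 1 library was left out). Ccne2 was at 1.69, 3.07 and 3.21 CPM in WT and 3.05, 4.01 and 3.04 in KO. The groups overlapped (log2 fold change 0.34, SE 0.29, edgeR adjusted p = 0.524). Cdk2 was at 15.7, 11.6 and 18.8 CPM in WT and 14.4, 12.1 and 14.2 in KO, every KO value lying inside the WT range. Cdkn1b, the p27 inhibitor of Cdk2, was at 17.0, 35.1 and 25.9 CPM in WT and 22.6, 30.7 and 18.4 in KO. These also lay within the WT range, and the log2 fold changes of Cdk2 and Cdkn1b (-0.18 and -0.12) turned to 0.064 and 0.085 with total counts alone.

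Of the E2F activators, E2f2 was the member with the smallest p. E2f2 was at 3.11, 4.06 and 3.61 CPM in WT and 5.45, 6.20 and 5.14 in KO. Every KO library was above every WT library, with means of 3.60 ± 0.477 and 5.60 ± 0.546 CPM (SD, n = 3 each) and a log2 fold change of 0.64 (SE 0.17). It was not called by edgeR (adjusted p = 0.106, and 0.0921 to 0.265 when 1 library was left out), while DESeq2 called it (adjusted p = 0.00754). E2f1 was at 9.34, 15.2 and 14.0 CPM in WT and 9.91, 10.4 and 11.5 in KO. The 3 KO values of E2f1 lay between those of WT replicate 1 and the other WT libraries, and its log2 fold change was -0.27 (SE 0.20, edgeR adjusted p = 0.453).

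**Figure D5:**
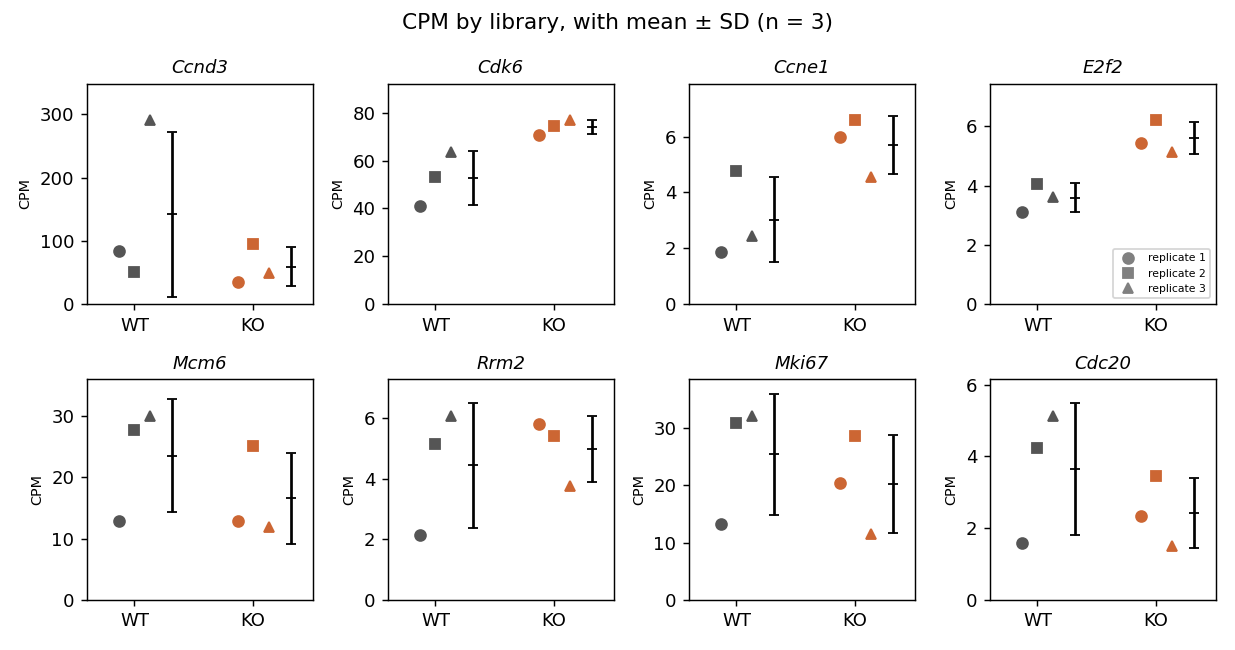
CPM of 8 members in each library (symbols give the replicate number), with the mean and SD of each genotype (n = 3) beside the points and axes starting at 0. Cdk6 and E2f2 do not overlap between the genotypes, Ccnd3 has 1 high WT library, and Mki67 and Cdc20 are lowest in WT replicate 1 and KO replicate 3.

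The Mcm genes encode the 6 subunits of the replicative helicase. Mcm2 was at 23.8, 33.4 and 36.7 CPM in WT and 26.2, 24.8 and 25.5 in KO. Mcm3 was at 16.0, 31.6 and 26.3 CPM in WT and 16.2, 19.1 and 19.7 in KO. Mcm4 was at 21, 25.2 and 25.4 CPM in WT and 21.4, 21.8 and 18.2 in KO. In each of these 3 genes WT replicates 2 and 3 were above all KO libraries and WT replicate 1 was not, and the log2 fold changes were -0.30 (SE 0.17), -0.42 (SE 0.25) and -0.22 (SE 0.12), with edgeR adjusted p of 0.345, 0.362 and 0.338. Without WT replicate 1 the adjusted p of Mcm2 came down to 0.0725, the lowest of any replication gene with a library left out.

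Mcm6 had the widest span of the helicase genes, at 12.9, 27.7 and 30.0 CPM in WT and 12.8, 25.1 and 11.8 in KO. High and low libraries occurred in both genotypes. Its deposited locus reached from 128331590 to 128401821 on chromosome 1 of GRCm38, over 70232 bases, where GENCODE M21 has 28075 bases for the gene. Mcm5 was at 7.42, 11.8 and 12.9 CPM in WT and 10.1, 9.75 and 8.49 in KO, and Mcm7, whose locus also holds the microRNA genes Mir25 and Mir93, was at 15.5, 21.1 and 22.3 in WT and 19.6, 17.2 and 16.2 in KO. Both overlapped between the genotypes, and both turned from negative (-0.18 and -0.15) to positive log2 fold changes with total counts alone (0.035 and 0.064).

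Origin licensing needs Cdc6 and Cdt1, which load the helicase, and the GINS complex takes part afterwards, when the loaded helicase is activated. Cdc6 was the lowest replication gene per length, at 0.20 CPM per kilobase, with 0.47, 1.43 and 0.98 CPM in WT and 1.27, 1.15 and 0.83 in KO. Cdt1 was at 3.11, 6.47 and 5.78 CPM in WT and 4.57, 5.0 and 3.98 in KO. Gins2 was at 1.34, 1.70 and 1.97 CPM in WT and 2.11, 2.49 and 1.07 in KO. WT replicate 1 was the lowest WT library in all 3, and the log2 fold changes were 0.17 (SE 0.42), -0.18 (SE 0.29) and 0.18 (SE 0.35), and edgeR gave adjusted p from 0.752 to 0.852.

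Ribonucleotide reductase, built from the products of Rrm1 and Rrm2, and thymidylate synthase, the product of Tyms, supply nucleotides for replication. Rrm1 was at 30.5, 37.1 and 38.4 CPM in WT and 29.9, 32.7 and 27.9 in KO, and had the smallest p of the replication genes (log2 fold change -0.23, SE 0.12, edgeR adjusted p = 0.324). Rrm2, the subunit that cycles with S phase, was at 2.12, 5.15 and 6.07 CPM in WT and 5.79, 5.42 and 3.75 in KO. Tyms was at 4.87, 7.17 and 7.91 CPM in WT and 7.21, 8.03 and 5.66 in KO. The genotypes overlapped in all 3 genes. Rrm2 spanned 2.86-fold within WT and Rrm1 1.26-fold. Pcna, the sliding clamp of DNA polymerases, was counted in a locus merged with Tmem230, at 39.7, 41.2 and 40.5 CPM in WT and 34.8, 57.9 and 55.3 in KO. KO replicates 2 and 3 were above WT and KO replicate 1 below it, and reads of Pcna cannot be told apart there from those of Tmem230.

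Of the G2/M genes, Birc5 (survivin, of the chromosomal passenger complex) had the smallest p. Birc5 was at 0.96, 2.19 and 2.19 CPM in WT and 1.12, 1.13 and 0.76 in KO. WT replicate 1 lay among the KO libraries, and the log2 fold change was -0.83 (SE 0.37, edgeR adjusted p = 0.256, and 0.0907 to 0.469 when 1 library was left out). Its partner kinase gene Aurkb was at 1.13, 2.90 and 2.89 CPM in WT and 2.05, 2.24 and 1.12 in KO. The KO libraries 1 and 2 of Aurkb lay between WT replicate 1 and the other WT libraries (log2 fold change -0.35, SE 0.44, edgeR adjusted p = 0.674).

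Mki67, the source of the Ki-67 protein that marks dividing cells, was the most abundant G2/M gene per length. Mki67 was at 13.2, 31.0 and 32.2 CPM in WT and 20.5, 28.7 and 11.6 in KO, means of 25.5 ± 10.6 and 20.2 ± 8.55 CPM (SD, n = 3 each). The difference between the means was smaller than the spread within either genotype (log2 fold change -0.33, SE 0.44, edgeR adjusted p = 0.694). Top2a, which untangles chromosomes before they separate, was at 6.81, 16.5 and 17.6 CPM in WT and 11.6, 14.4 and 6.30 in KO. Its locus also holds the noncoding gene Gm23451, and the order of the libraries was that of Mki67 (log2 fold change -0.35, SE 0.44, edgeR adjusted p = 0.679).

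The cyclins of the later cycle and their kinase kept the same order in KO. Ccna2 was at 2.97, 7.39 and 8.07 CPM in WT and 5.10, 6.20 and 2.87 in KO. Ccnb1 was at 1.56, 3.93 and 3.61 CPM in WT and 2.37, 3.67 and 1.45 in KO. Ccnb2 was at 1.15, 2.97 and 3.44 CPM in WT and 1.52, 2.94 and 0.87 in KO, the widest span of any G2/M gene within KO, at 3.37-fold. The 3 cyclin genes thus differed by 2.16-fold or more between KO replicates 3 and 2. Cdk1, the kinase they activate, was at 1.60, 4.10 and 4.72 CPM in WT and 2.51, 3.37 and 1.68 in KO. Log2 fold changes of these 4 genes were -0.38 (SE 0.44), -0.28 (SE 0.46), -0.51 (SE 0.56) and -0.47 (SE 0.45), and edgeR gave adjusted p from 0.581 to 0.758.

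The spindle checkpoint genes and the activator of chromosome separation showed the same libraries as low. Bub1, the lowest G2/M gene per length at 0.34 CPM per kilobase, was at 0.98, 2.93 and 3.18 CPM in WT and 1.86, 2.10 and 0.74 in KO. Bub1b was at 2.05, 3.71 and 3.70 CPM in WT and 2.95, 3.92 and 1.57 in KO. Cdc20, which activates the anaphase-promoting complex, was at 1.59, 4.23 and 5.12 CPM in WT and 2.34, 3.44 and 1.48 in KO. WT replicate 1 lay below KO replicates 1 and 2 in each of them, as in all 15 G2/M genes. Their log2 fold changes were -0.59 (SE 0.56), -0.17 (SE 0.40) and -0.60 (SE 0.50), with edgeR adjusted p of 0.566, 0.842 and 0.516.

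The mitotic kinases Plk1 and Aurka, the spindle factor Tpx2 that activates Aurka, and the transcription factor Foxm1 complete the G2/M genes. Plk1 was at 0.86, 2.69 and 3.0 CPM in WT and 1.65, 2.02 and 0.96 in KO, the widest WT span of the G2/M genes, at 3.50-fold. Aurka was at 1.69, 3.30 and 2.87 CPM in WT and 2.09, 2.75 and 1.95 in KO, and Tpx2 at 2.90, 7.69 and 6.98 in WT and 4.05, 5.55 and 3.07 in KO. Aurka had the smallest spread of the 15 within a genotype, with a standard deviation of 0.41 on the log2 scale. The deposited loci of Plk1 and Tpx2 covered 205875 and 293959 bases, where GENCODE M21 has 10435 and 47358. Foxm1 was counted in a locus merged with Tex52, Nrip2 and Gm44596, at 3.41, 4.91 and 9.33 CPM in WT and 5.50, 6.73 and 5.26 in KO. Reads of Foxm1 cannot be told apart there, and of the 15 it had the log2 fold change nearest to 0 (-0.012, SE 0.37).

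The rest of the pathway was read from 3 further lists. Of 28 other replication genes, 32 other mitosis genes and 26 other control genes, none was called by edgeR, and the medians of the log2 fold change were -0.09, -0.22 and -0.08. Before adjustment 0, 1 and 5 of them had a p under 0.05, against 22.2% of all loci, and DESeq2 called 0, 1 and 3, against 12.4% of all loci. The other mitosis genes shared the order of the libraries, with WT replicate 1 and KO replicate 3 lowest in 26 of 32 (81.2%), against 14 of 28 other replication genes (50%), 3 of 26 control genes (11.5%) and 13.7% of all loci. Their median was at -0.63, 0.48 and 0.50 on the log2 scale in WT and -0.03, 0.33 and -0.61 in KO.

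The named members of these lists were those with the smallest p. Orc1, of the origin recognition complex, was at 0.29, 0.94 and 0.88 CPM in WT and 0.31, 0.39 and 0.36 in KO (edgeR adjusted p = 0.27). Cdc45, a helicase partner, was at 7.39, 5.49 and 5.77 CPM in WT and 5.26, 3.96 and 5.16 in KO (edgeR adjusted p = 0.304), and Pola1, of DNA polymerase alpha, at 14.0, 17.1 and 18.7 in WT and 12.8, 15.6 and 10.4 in KO (edgeR adjusted p = 0.305). Of these 3, Cdc45 alone did not overlap between the genotypes. The deposited Cdc45 locus covered 150885 bases, where GENCODE M21 has 31541. Ect2, which is needed for cytokinesis, was at 7.64, 11.3 and 12.4 CPM in WT and 7.24, 6.98 and 5.37 in KO, without overlap (log2 fold change -0.68, SE 0.22, edgeR adjusted p = 0.156, DESeq2 adjusted p = 0.0466). Incenp and Pttg1 had log2 fold changes of 0.32 and 0.28 and edgeR adjusted p of 0.302 and 0.382, with no overlap between the genotypes for Pttg1.

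Control genes outside the member list included some with no overlap between the genotypes. Cdkn1a, the p21 inhibitor induced by p53, was at 6.99, 13 and 13.4 CPM in WT and 19.7, 21.7 and 20.1 in KO, and its log2 fold change was 0.88 (SE 0.25, edgeR adjusted p = 0.12). The deposited Cdkn1a locus covered 633230 bases, where GENCODE M21 has 9752, and reads from beyond the gene cannot be told apart there. E2f4, an E2F repressor, was at 37.1, 44.9 and 43.4 CPM in WT and 29.8, 31.2 and 33.3 in KO, and its log2 fold change was -0.41 (SE 0.11, edgeR adjusted p = 0.0995). Mybl2, a B-Myb factor of mitotic gene control, was at 1.25, 1.17 and 1.27 CPM in WT and 1.86, 2.07 and 1.75 in KO (log2 fold change 0.62, SE 0.18, edgeR adjusted p = 0.126). None of the 3 was called by edgeR, DESeq2 called each (adjusted p = 0.0145, 0.0164 and 0.0234), and no overlap was found in 8 of the 26 control genes against 30.5% of all loci.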

How the data were processed

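Whole adrenal gland RNA of 3 WT and 3 KO libraries was sequenced as read pairs of 100 bases after rRNA removal from 250 ng of total RNA, per the labels' protocols. The submitters' processing notes name the build GRCm38 and the tools STAR, StringTie, Trimmomatic, Picard and edgeR. The authors deposited raw read counts and log2 CPM per locus, per the file headers; 10 other columns of values were not used. Locus lengths in base pairs are the authors' own. The tool versions, the counting program and its strand setting were not given in the sources used here.

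Counts of named loci (53103 of 59699; unnamed loci took 1.39% to 2.04% of a library) were filtered with filterByExpr, scaled by TMM and tested with edgeR 4.0.16 (glmQLFit, robust; glmQLFTest, two-sided; R 4.3.3), with Benjamini-Hochberg adjustment over 21358 loci. CPM uses TMM-scaled library sizes, and the SE is the log2 fold change divided by the square root of F. The script was tested on simulated data. Alternatives used DESeq2 1.42.0, limma 3.58.1, other scalings and filters, a replicate block and left-out libraries. Replicates of a genotype differed well beyond counting noise. The 40 members, the role groups and all lists were chosen with earlier results of these data known. Per-library values were given first for members with an unadjusted p under 0.05 or no overlap, for up to 4 members per role with the smallest p and for the most and least abundant; the other members were added to them. From each further list the 3 members with the smallest p were named. Mcm7, Pcna, Top2a and Foxm1 were counted in loci with other genes, and 32 of 40 members had the start and end of GENCODE M21.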

Additional observations from a re-analysis of the deposited data

How the results depend on the processing

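The number of members called was 0 under 18 of the 19 alternative fits and 1 with DESeq2. Of these fits, the one with at least 10 CPM in 3 libraries held only 19 of the 40 members and 2 of the 15 G2/M genes. Loci called numbered 393, and 672 with total counts alone, 711 with equal Rn7sk counts, 612 with at least 1 CPM in 3 libraries, 5 with the replicate block, 16 without WT replicate 1 and KO replicate 3, 2626 with DESeq2, 975 with limma-trend on the deposited log2 CPM, 1503 with limma-voom, and 15 to 644 when 1 library was left out. The share of higher calls was 76.6%, but 94.8% with total counts alone, 94.1% with equal Rn7sk counts and 94.5% with limma-trend, where the median of all loci was 0.22, 0.19 and 0.22. It was 60.5% with DESeq2, 67.7% with limma-voom and 53.0% without WT replicate 1. The G1/S median of -0.15 was 0.074 with total counts alone, 0.10 with limma-trend and -0.20 to 0.038 with 1 library left out. The replication median of -0.18 was 0.035 with total counts alone, -0.0029 with equal Rn7sk counts, 0.083 with limma-trend and -0.31 to -0.058 with 1 library left out. The G2/M median of -0.38 was -0.17, -0.24 and -0.098 in those fits, -0.59 with limma-voom and -0.71 to -0.12 with 1 library left out. No pairing of same-numbered WT and KO libraries is given in the sample labels. The correlations of their deviations were -0.086, 0.012 and -0.14, and with 3 libraries per genotype such values cannot decide whether they were paired. The sign of 15 uncalled members turned in some fits; the cause was not tested beyond the shift of all loci. With total counts alone these were Cdk4 (0.053), Cdk2 (0.064), Cdkn1b (0.085), Mcm5 (0.035), Mcm7 (0.064), Cdt1 (0.025), Bub1b (0.049) and Foxm1 (0.22). With equal Rn7sk counts they were Cdk4 (0.023), Cdk2 (0.036), Cdkn1b (0.034), Mcm7 (0.033) and Foxm1 (0.16). With limma-trend they were Cdk4 (0.058), Cdk2 (0.073), Cdkn1b (0.13), Mcm4 (0.0019), Mcm5 (0.079), Mcm7 (0.083), Cdt1 (0.11), Rrm1 (0.0019), Bub1b (0.013), Aurka (0.053) and Foxm1 (0.33). With limma-voom Gins2 (-0.031) and Tyms (-0.059) turned, and Foxm1 did with the replicate block (0.11) and at 1 CPM in 3 libraries (0.016). With 1 library left out, log2 fold changes ran from -0.35 to 0.18 for Cdkn1b, -0.16 to 0.60 for Cdc6, -0.44 to 0.043 for Cdt1, -0.071 to 0.46 for Gins2, -0.17 to 0.45 for Rrm2, -0.12 to 0.21 for Tyms, -0.48 to 0.12 for Bub1b, -0.45 to 0.011 for Aurka and -0.29 to 0.48 for Foxm1. Leaving out members whose ends differ from GENCODE M21, chosen after seeing the data, gave G1/S, replication and G2/M medians of -0.17, -0.18 and -0.38.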
